A study of Mus musculus with 71 samples.

Results

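The libraries described here are ATAC-seq profiles of motor neuron progenitors (pMN) on day 9 of differentiation, sorted into a fraction labelled NFIAp and a fraction labelled NFIAn, read here as NFIA-positive and NFIA-negative cells. They were taken by their labels: 3 NFIAp libraries and 2 NFIAn libraries, 5 of the 71 libraries of the series. All 5 carry the genotype WT. The series grew mouse embryonic stem cells in N2B27 medium with bFGF, gave CHIR99021, a GSK3β inhibitor, on day 2, retinoic acid with Smoothened Agonist (SAG) from day 3, and SAG alone from day 5. All groups had this treatment, and cells were fixed, stained inside the cell and sorted before ATAC-seq, which reads out accessible chromatin. The other groups used below are WT pMN NFIAn on days 5 and 7, WT pMN NFIAp on day 11, pMN NFIAn of the genotype MUT on days 5, 7, 9 and 11, and WT p2 NFIAp and NFIAn on day 9. For the population line and interval classes, WT p2 and WT p0-p1 (labelled p1) were also used, as NFIAn on day 7 and NFIAp on day 11. All 26 groups of the series enter the variance estimate. The mutated gene is not named in the labels. The cells were made in a dish, and the labels leave unsaid if each replicate was its own culture; the p-values below cover only the spread from library to library, which may be technical. In pMN the fraction label changes with time and genotype: NFIAp and NFIAn were both sampled on day 9 in WT alone, so in the comparisons of day 11 with day 7, and of MUT with WT on day 11, NFIA fraction and day or genotype cannot be told apart.

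The ventral neural tube is patterned by Sonic hedgehog, which SAG mimics, into progenitor domains. The pMN domain, marked by the transcription factor Olig2, first makes motor neurons and later oligodendrocyte precursors, while the neighbouring p2 domain makes V2 interneurons. NFIA is a transcription factor of the nuclear factor I family. In the developing spinal cord its appearance in progenitors accompanies the change from making neurons to making glia. Progenitors of the same day can therefore be divided by whether they already hold the protein.

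The deposited table gives read counts for 155738 accessible intervals, each divided by 1 size factor per library, and identifies intervals by number without positions or gene names. The Olig2, Nkx6-1, Sox2 and Nfia loci could therefore not be looked up, and the fraction labels could not be checked against a marker. What could be checked is population and genotype. On a line drawn from WT p2 (0) to WT pMN (1) on day 7, over intervals that differed between those groups, the NFIAp libraries lay at 0.691, 0.768 and 0.758 and the NFIAn libraries at 0.692 and 0.820, against 0.0155 to 0.0365 in day 9 WT p2 NFIAn. Over 5 intervals chosen because MUT libraries lack reads there, the 5 libraries held 165 to 254 reads, beside 148 to 519 in 32 other WT libraries. Elsewhere 3 libraries went against their labels: WT D7 pMN replicate 3 had 0 reads in those 5 intervals, MUT D7 pMN replicate 3 had 213, where 32 other MUT libraries had 0 to 1, and WT D9 p2 NFIAp replicate 2 lay at 0.761 on the population line, against 0.237 and 0.213 in its replicates. They share the variance estimate with the 5 libraries, and the counts below are also given without them.

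Depth was even. NFIAp replicates 1, 2 and 3 held 24732515, 22662664 and 23168874 reads in intervals, and NFIAn replicates 1 and 2 held 23241323 and 24447213. The share of intervals with no read was 0.473% to 0.803% over the 5 libraries. At the median mean value of 26.6 normalised reads, counting error alone is 19.5%, and duplicate reads would make the true error larger.

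Few intervals passed the test between the fractions, and those that did were more open in NFIAp cells. Of 155734 intervals tested, 19 were higher in NFIAp (0.0122%) and 0 were lower (0%), at a limma adjusted p under 0.05 and an absolute difference of at least 1 on the log2(value + 5) scale, which understates the change of weak intervals. The 19 differences ran from 1.05 to 2.27, with adjusted p from 0.0168 to 0.0473. Mean levels of the 19 were 11.98 to 151 normalised reads in NFIAp and 0.499 to 68.7 in NFIAn. By edgeR on the recovered reads, 17 intervals were higher and 0 lower, and 12 of the 19 were among them. At an unadjusted limma p under 0.05, 10384 intervals were higher (6.67%) and 4835 lower (3.1%). Over all intervals the median difference was 0.02.

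The design limits what could be seen. With 3 libraries against 2, the 95% interval of a difference reached a median of 0.58 to either side, and it lay wholly between -1 and 1 for 119754 intervals (76.9%). Counts were simulated for this comparison over 155734 intervals, but changes were put only into stronger ones, whose mean was not under the median. A small random sample of these was changed, in a single simulation, so each rate is coarse. In that sample, 29.4% of 2-fold rises, 91.2% of 3-fold rises and 100% of 6-fold rises were called. Falls of the same sizes were called in 33.3%, 63.6% and 90.9% of cases. Recovery in weaker intervals, which hold 7 of the 19 calls described below, was not tested. Libraries were drawn independently, so a shift shared by many intervals of a library was not simulated. The same simulation called 6 intervals that had not been changed.

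**Figure D1:**
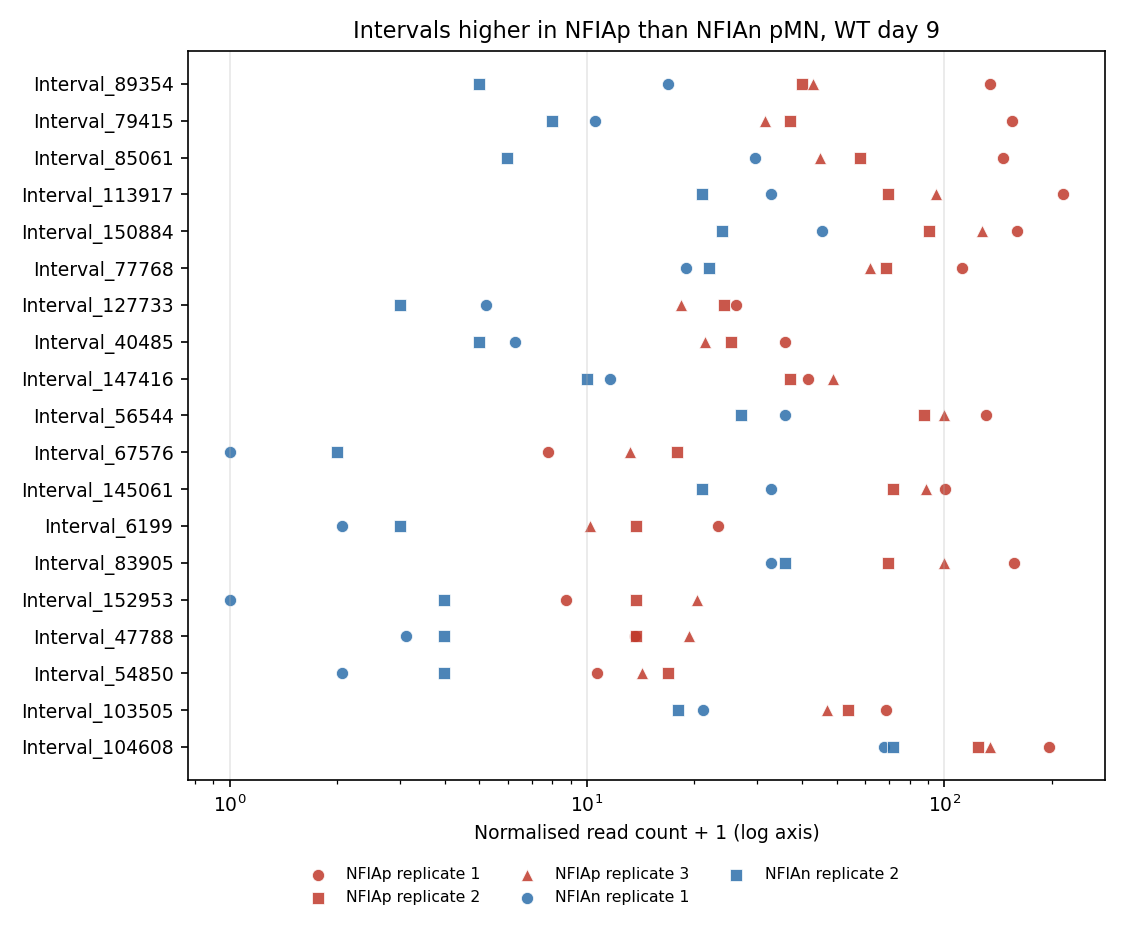
Normalised read count plus 1 (log axis) of the 19 intervals called higher in NFIAp, in each of the 3 NFIAp (red) and 2 NFIAn (blue) WT day 9 pMN libraries. In all 19 the lowest NFIAp library lies above the highest NFIAn library, and NFIAp replicate 1 is the highest in 14.

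The interval with the largest difference was Interval_89354, with 134, 39.1 and 41.8 normalised reads in NFIAp replicates 1, 2 and 3, against 15.9 and 3.99 in NFIAn replicates 1 and 2. Every NFIAp library lay above both NFIAn libraries, and NFIAp replicate 1 stood far above the other two of its fraction. The difference was 2.27 with an SE of 0.42 (limma adjusted p = 0.0168). Interval_79415 had 154, 35.9 and 30.6 normalised reads in NFIAp, against 9.53 and 6.98 in NFIAn, a difference of 2.22 with an SE of 0.40 (limma adjusted p = 0.0168). Here too the fractions did not overlap and replicate 1 of NFIAp was the highest. Interval_85061 had 145, 57.1 and 43.9 normalised reads in NFIAp, against 28.6 and 4.99 in NFIAn. Its NFIAn libraries were themselves far apart, and the difference of 2.07 had an SE of 0.41 (limma adjusted p = 0.0434). Interval_113917 had 214, 68.7 and 93.8 normalised reads in NFIAp, against 31.8 and 19.9 in NFIAn, a difference of 1.95 with an SE of 0.35 (limma adjusted p = 0.0168).

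These 4 intervals were nearly closed in WT pMN on day 7 and wide open on day 11. Interval_89354 averaged 418 ± 10.3 normalised reads in WT D11 pMN NFIAp, against 5.80 ± 2.09 in WT D7 pMN NFIAn (SD, n = 3 each). Interval_79415 averaged 890 ± 87.9 on day 11, against 5.84 ± 1.59 on day 7, and Interval_85061 averaged 485 ± 44.3 on day 11, against 2.93 ± 0.667 on day 7 (SD, n = 3 each). The day 9 NFIAp libraries thus lay between the days, and the day 9 NFIAn libraries nearer to day 7. In MUT D11 pMN, which is NFIAn, the same intervals were far lower than in WT D11 pMN: Interval_89354 averaged 14.5 ± 3.13 and Interval_85061 averaged 7.08 ± 2.50 (SD, n = 3 each). Interval_113917 opened partly in MUT, with 114 ± 12.9 normalised reads in MUT D11 pMN, against 655 ± 20.4 in WT D11 pMN (SD, n = 3 each).

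The called interval with the highest level was Interval_104608, with 196, 124 and 134 normalised reads in NFIAp, against 66.7 and 70.8 in NFIAn. It was already accessible in every group of pMN, and the NFIAn libraries lay close to the 52.5 ± 10.9 of WT D7 pMN (SD, n = 3). Its difference of 1.05 had the smallest SE of the 19, 0.19 (limma adjusted p = 0.0168). Interval_56544 had 130, 86.7 and 98.9 normalised reads in NFIAp, against 34.9 and 25.9 in NFIAn, a difference of 1.63 with an SE of 0.29 (limma adjusted p = 0.0168). Its NFIAn libraries were at the level of WT D7 pMN, 31.8 ± 7.48 (SD, n = 3), and of MUT D9 pMN, 37.4 ± 5.45 (SD, n = 2). Interval_145061 had 99.8, 70.8 and 87.7 normalised reads in NFIAp, against 31.8 and 19.9 in NFIAn, a difference of 1.58 with an SE of 0.28 (limma adjusted p = 0.0168). In these last 2 intervals the NFIAp replicates stood closer together than in Interval_89354.

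Weak intervals were also among the calls: 7 of the 19 had a mean over the 5 libraries under the median. Interval_67576 had 6.78, 16.9 and 12.2 normalised reads in NFIAp, against 0 and 0.997 in NFIAn, that is 1 read in both NFIAn libraries together. Interval_152953 had 7.75, 12.7 and 19.4 normalised reads in NFIAp, against 0 and 2.99 in NFIAn. Here NFIAp replicate 1 was the lowest of its fraction, the reverse of the strong intervals. Interval_6199 had 22.3, 12.7 and 9.18 normalised reads in NFIAp, against 1.06 and 1.99 in NFIAn. At such levels the fitted differences, 1.59, 1.48 and 1.54 for these 3, depend on the value added before the logarithm and were called with 5 added.

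Most of the 19 belonged to the chromatin that opens late in WT pMN. In a separate limma fit of the 66 other libraries, 34469 intervals (22.1%) were higher in WT D11 pMN than in WT D7 pMN, and 16 of the 19 were among them, with 0 among the 29502 (18.9%) that were lower. Between MUT D11 pMN and WT D11 pMN, 13172 intervals (8.46%) were lower in MUT, and 15 of the 19 were among these. From day 7 to day 11 in MUT pMN, 26407 intervals (17%) rose, and they held 8 of the 19. The intervals that rose in WT and were lower in MUT on day 11 numbered 12007 (7.71%), and held 15 of the 19. Those 15 were 2.01 to 6.37 higher in WT D11 than in WT D7 pMN on the log2 scale, and MUT D11 differed from WT D11 pMN by -5.59 to -1.52. The median over the 19 of the group mean was 9.31, 7.67, 71.6 and 226 normalised reads in WT pMN on day 5, on day 7, on day 9 in NFIAp and on day 11. The day 9 NFIAn median was 9.93, and in MUT pMN the medians were 9.92, 10.8, 13.4 and 18.8 on days 5, 7, 9 and 11.

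**Figure D2:**
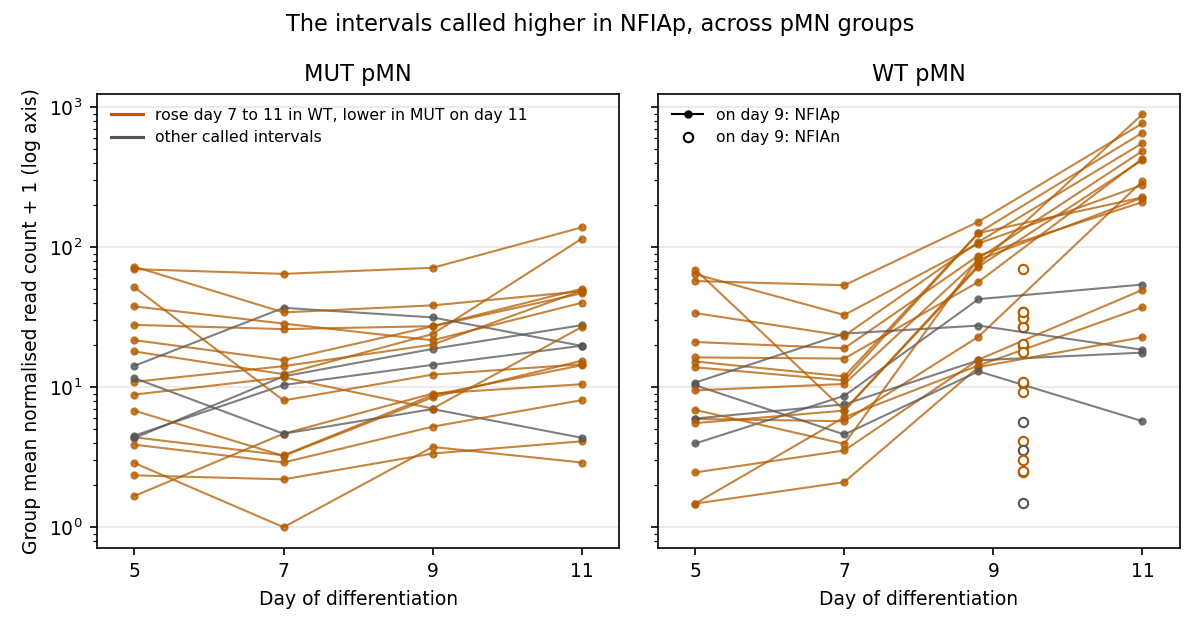
Group mean normalised read count plus 1 (log axis) of the 19 called intervals by day in MUT pMN and WT pMN. Filled day 9 points in WT are NFIAp and open points are NFIAn; the 15 orange intervals rose in WT from day 7 to 11 and were lower in MUT on day 11. In WT the NFIAp means on day 9 have a median of 71.6 and the NFIAn means one of 9.93.

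A smaller group of the calls fell outside the class that rose in WT and was lower in MUT on day 11. Interval_147416 had 40.7, 35.9 and 47.9 normalised reads in NFIAp, against 10.6 and 8.97 in NFIAn, and it rose from day 7 to day 11 in MUT as well as in WT. Interval_40485 had 34.9, 24.3 and 20.4 normalised reads in NFIAp, against 5.29 and 3.99 in NFIAn, and it did not pass the test from day 7 to day 11. In this interval the NFIAn fraction was the low one: its mean of 4.64 ± 0.922 (SD, n = 2) compared with 23.1 ± 7.31 in WT D7 pMN (SD, n = 3), 30.5 ± 4.05 in MUT D9 pMN (SD, n = 2) and 25.3 ± 4.27 in WT D9 p2 NFIAn (SD, n = 3). Interval_47788 had 12.6, 12.7 and 18.4 normalised reads in NFIAp, against 2.12 and 2.99 in NFIAn. Its NFIAp level was close to the 16.7 ± 3.51 of WT D11 pMN NFIAp (SD, n = 3) and to the 13.4 ± 0.862 of MUT D9 pMN (SD, n = 2). Interval_67576, given above, averaged 3.59 ± 2.62 normalised reads in WT D7 pMN and 4.71 ± 3.19 in WT D11 pMN (SD, n = 3 each), so its NFIAp libraries lay above both days.

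The remaining calls all came from the late-opening intervals. Interval_150884 had 159, 89.9 and 126 normalised reads in NFIAp, against 44.5 and 22.9 in NFIAn. Interval_77768 had 111, 67.7 and 61.2 in NFIAp, against 18.0 and 20.9 in NFIAn. Interval_83905 had 156, 68.7 and 98.9 in NFIAp, against 31.8 and 34.9 in NFIAn. In all 3 the fractions were apart and NFIAp replicate 1 was the highest. Interval_127733, Interval_54850 and Interval_103505 completed the list, with differences of 1.73, 1.35 and 1.35 and limma adjusted p of 0.0473, 0.0434 and 0.0199.

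No interval passed the test as lower in NFIAp. The 5 with the smallest p among intervals at or above the median level, with fractions that do not overlap and a difference of at least 1 in size, are given as values and were all among the intervals that fell from day 7 to 11 in WT and among the 22477 (14.4%) that fell in MUT. Interval_128199 had 33.0, 66.6 and 60.2 normalised reads in NFIAp, against 87.9 and 162 in NFIAn, a difference of -1.15 (limma adjusted p = 0.0938). It averaged 20.7 ± 3.91 in WT D11 pMN NFIAp and 171 ± 43.7 in MUT D9 pMN (SD, n = 3 and 2). Interval_121629 had 29.1, 46.5 and 46.9 normalised reads in NFIAp, against 80.4 and 109 in NFIAn, with a difference of -1.13 (limma adjusted p = 0.152). Interval_114655 had 29.1, 74.0 and 54.1 in NFIAp, against 80.4 and 136 in NFIAn, with a difference of -1.02 (limma adjusted p = 0.154). In these 3 intervals NFIAp replicate 1 was the lowest library and NFIAn replicate 2 the highest. Interval_152176 and Interval_132960 had differences of -1.16 and -1.04 (limma adjusted p = 0.180 and 0.213). At an adjusted p under 0.1 and any size of change, 6 intervals were lower and 137 higher.

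The count of calls depended on the replicate number and on single libraries. With a block for replicate number across all libraries 283 intervals were higher and 5 lower, and with one within WT D9 pMN 246 and 5. The fits that follow had no such block. Without NFIAp replicate 1, 1 interval was called higher, and without NFIAn replicate 2, 0 were, leaving 1 and 0 of the 19. Without NFIAn replicate 1, 134 were called higher and 7 lower, without NFIAp replicate 3, 106 higher and 0 lower, and without NFIAp replicate 2, 38 higher and 3 lower. The lone NFIAn library in the fits that leave out the other is assumed to vary like the other groups. All 19 were non-overlapping between fractions, which was true of 21726 intervals with NFIAp above (14%) and 22253 with NFIAp below (14.3%) over all tested. NFIAp replicate 1 was the highest library in 14 of the 19, replicate 2 in 2 and replicate 3 in 3, and NFIAn replicate 2 was the lowest in 11 and replicate 1 in 8.

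In an analysis chosen after seeing the data, the 3 libraries outside day 9 pMN that went against their labels were left out of the fit. It called 244 intervals higher in NFIAp (0.157%) and 7 lower (0.00449%), with all 19 among the 244. Leaving out WT D9 p2 NFIAp replicate 2 alone gave 230 higher and 6 lower. The 244 include the 19 and rest on the same differences with another variance estimate, so they are not separate support. Of the 244, 230 (94.3%) had risen in WT pMN from day 7 to 11, against 22.1% of all tested. Those that had risen and were lower in MUT on day 11 numbered 192 (78.7%), against 7.71% of all tested. A further 36 (14.8%) had risen in both genotypes and were not lower in MUT on day 11, against 10.9%. Whether or not lower in MUT on day 11, 148 (60.7%) of the 244 rose in MUT pMN from day 7 to 11, against 17% of all tested. The classes themselves still use the WT D7 and MUT D7 pMN libraries in doubt. All 7 lower intervals were among the 18458 (11.9%) that fell in both genotypes, and Interval_128199, Interval_121629, Interval_114655 and Interval_132960 were 4 of them (limma adjusted p = 0.0166, 0.0233, 0.0291 and 0.0203). Over the 244, the median of the group mean was 67.5 normalised reads in WT D9 pMN NFIAp and 20.9 in WT D9 pMN NFIAn, with 18.9 in MUT D9 pMN NFIAn and 327 in WT D11 pMN NFIAp. This count rests on the same libraries: NFIAp replicate 1 was the highest library in 220 and NFIAn replicate 2 the lowest in 187, and without either library the count was 3 and 4 higher, with 0 lower. Without NFIAn replicate 1 it was 737 higher and 64 lower, without NFIAp replicate 3, 536 and 17, and without NFIAp replicate 2, 364 and 34.

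**Figure D3:**
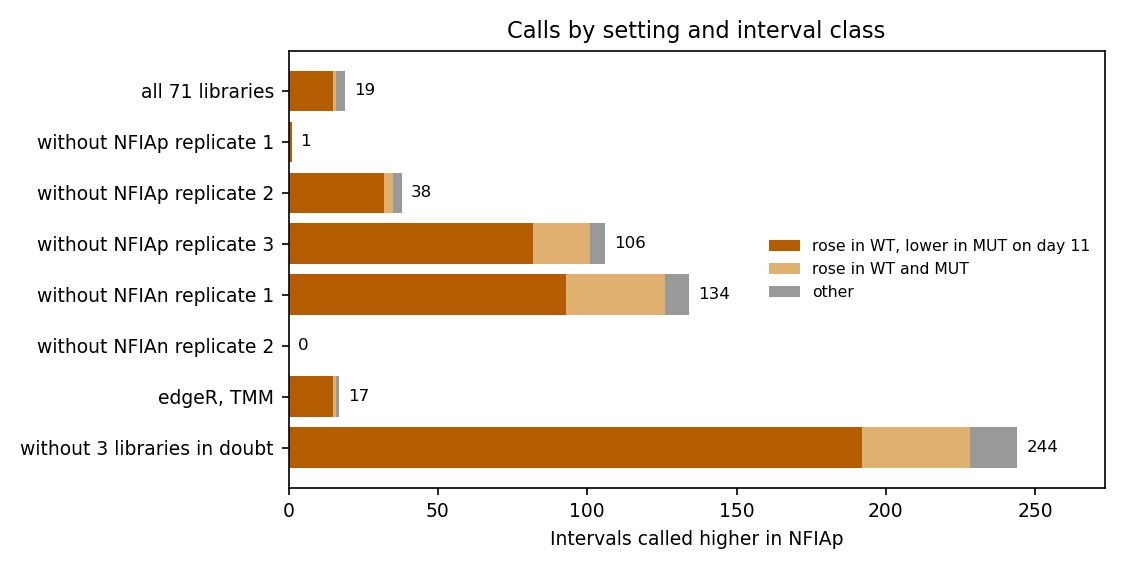
Number of intervals called higher in NFIAp than NFIAn in WT day 9 pMN, with all libraries, with each of the 5 libraries left out, by edgeR, and without the 3 libraries in doubt, split by interval class. The count is 1 without NFIAp replicate 1, 0 without NFIAn replicate 2 and 134 without NFIAn replicate 1; late-opening intervals that are lower in MUT make up 15 of the 19 with all libraries.

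Classes of intervals, defined in the 66 other libraries, show how the rest of the accessible chromatin lay. The differences here are log2(value + 5), NFIAp minus NFIAn, and the classes got no test. The 34469 intervals that rose in WT pMN from day 7 to 11 had a median difference of 0.32, and 83.9% of them lay above 0, against 53.0% of all tested. Those lower in MUT on day 11 had a median of 0.36, with 26.8% higher at an unadjusted limma p under 0.05, against 6.67% of all tested. The 17026 that rose in both genotypes and were not lower in MUT on day 11 had nearly the same median, 0.35, with 21.0% higher at that p. Intervals that rose in MUT alone, 6058 of them (3.89%), had a median of 0.21. Closing moved less: the 29502 intervals that fell in WT had a median of -0.11, the 18458 that fell in both genotypes one of -0.14, and the 2651 (1.7%) that fell in WT and were higher in MUT on day 11 one of -0.09.

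Classes tied to the population rather than the day were mixed. The 1772 intervals (1.14%) highest in pMN on day 11 had a median difference of 0.27, and the 3234 (2.08%) highest in pMN on day 7 one of 0.03. The 337 intervals (0.216%) highest in p2 on day 11 had a median of 0.06, as did the 7656 (4.92%) highest in p0-p1. The 13271 (8.52%) that rose in WT pMN from day 5 to 7 had 0.10 and the 10745 (6.9%) that fell then had 0.04. The 4062 (2.61%) lower in NFIAp than NFIAn in day 9 p2 had 0.01. The 4889 (3.14%) strong intervals that were constant over the other groups had a median of -0.09, and in 59.1% of them every NFIAp library lay below both NFIAn libraries, against 14.3% of all tested. This last shift was -0.01 after quantile normalization and -0.05 with equal library totals.

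The intervals with the largest change in a class show the same spread between libraries at higher levels. Interval_111534, which led those that rose in WT, had 441, 114 and 123 normalised reads in NFIAp, against 69.9 and 20.9 in NFIAn, and its difference of 2.11 with an SE of 0.62 did not pass the test (limma adjusted p = 0.201). Interval_16503, which led those that rose in both genotypes, had 553, 254 and 204 in NFIAp, against 160 and 60.8 in NFIAn (difference 1.58, limma adjusted p = 0.194). The fractions did not overlap in either interval, and NFIAp replicate 1 held more than any other library in both. Interval_47286, which led those that fell in WT and were higher in MUT, had 78.5, 262 and 220 in NFIAp, against 200 and 448 in NFIAn, so its fractions overlapped (difference -0.83, limma adjusted p = 0.381).

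Libraries of a fraction differed along the same axis as the fractions. Over the intervals that rose in WT, the median level relative to the mean of the fraction means was 0.40, 0.08 and 0.02 in NFIAp replicates 1, 2 and 3, against -0.03 and -0.27 in NFIAn replicates 1 and 2. NFIAp replicates 2 and 3 and NFIAn replicate 1 lay close together, while NFIAp replicate 1 and NFIAn replicate 2 lay at either end. Over the intervals that fell in WT the ends were -0.19 in NFIAp replicate 1 and 0.18 in NFIAn replicate 2. Over the 1792 intervals higher in NFIAp than NFIAn in day 9 p2 (1.15%), the levels were 0.42, 0.15 and 0.11 in the NFIAp libraries, against -0.14 and -0.28 in the NFIAn libraries, with no overlap.

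**Figure D4:**
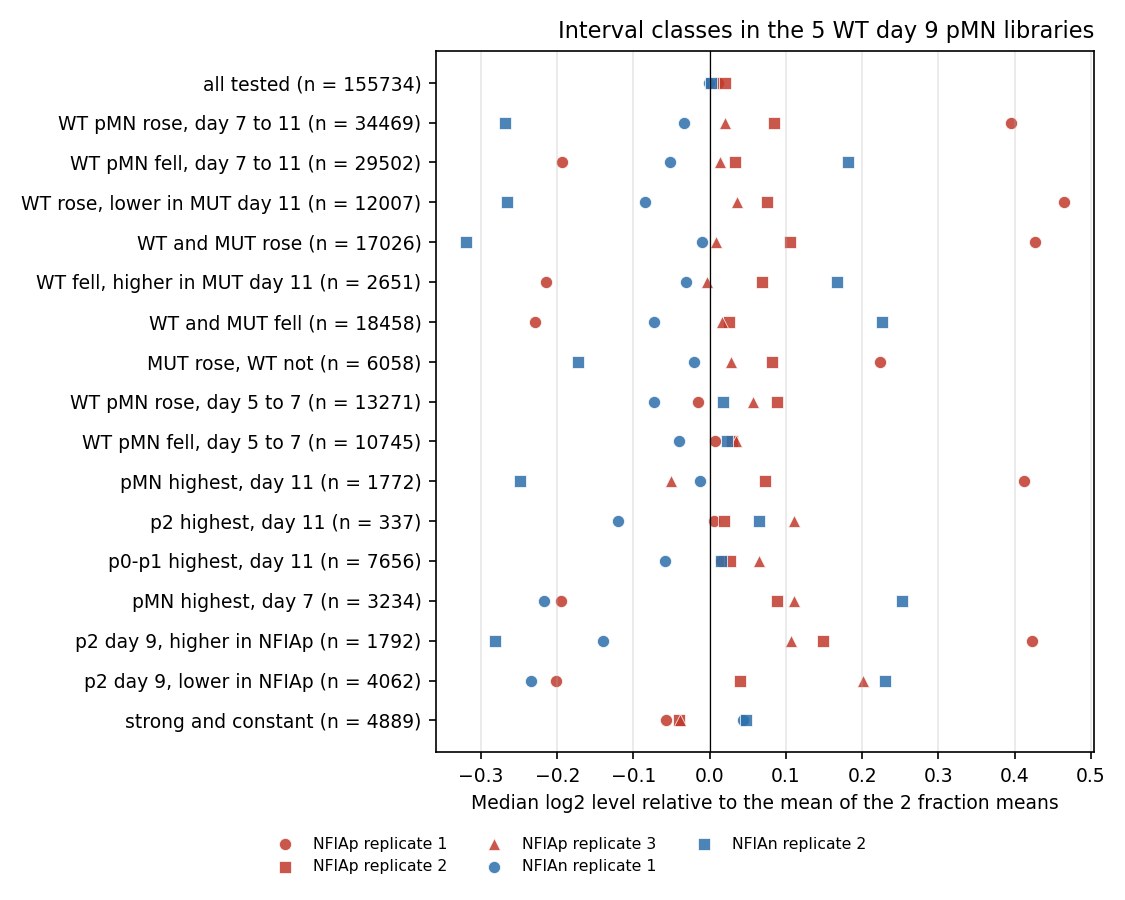
Median log2(value + 5) level of each interval class in the 3 NFIAp (red) and 2 NFIAn (blue) WT day 9 pMN libraries, relative to the mean of the 2 fraction means; n is the number of intervals. NFIAp replicate 1 and NFIAn replicate 2 lie at the ends of the classes that rose in WT, with 0.40 and -0.27 in the first of them.

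Each library was also placed on the line from the mean of WT pMN on day 7 (0) to that on day 11 (1) over all tested intervals. NFIAp replicates 1, 2 and 3 lay at 0.581, 0.433 and 0.418, and NFIAn replicates 1 and 2 at 0.418 and 0.295. The lowest NFIAp library and the highest NFIAn library had the same position to 3 digits, but they carry different replicate numbers, 3 and 1. Within replicate numbers 1 and 2, the NFIAp library lay further along than the NFIAn library. The means were 0.477 ± 0.0900 in NFIAp and 0.356 ± 0.0868 in NFIAn (SD, n = 3 and 2), and a permutation test of 3 libraries against 2 cannot go below 0.1, so none was made. The difference of 0.121 became 0.0692 without NFIAp replicate 1 and 0.0596 without NFIAn replicate 2. MUT D9 pMN averaged 0.267 ± 0.0696 (SD, n = 2) and MUT D11 pMN 0.661 ± 0.0431 (SD, n = 3) on the same line, so both day 9 WT fractions lay between the MUT days.

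**Figure D5:**
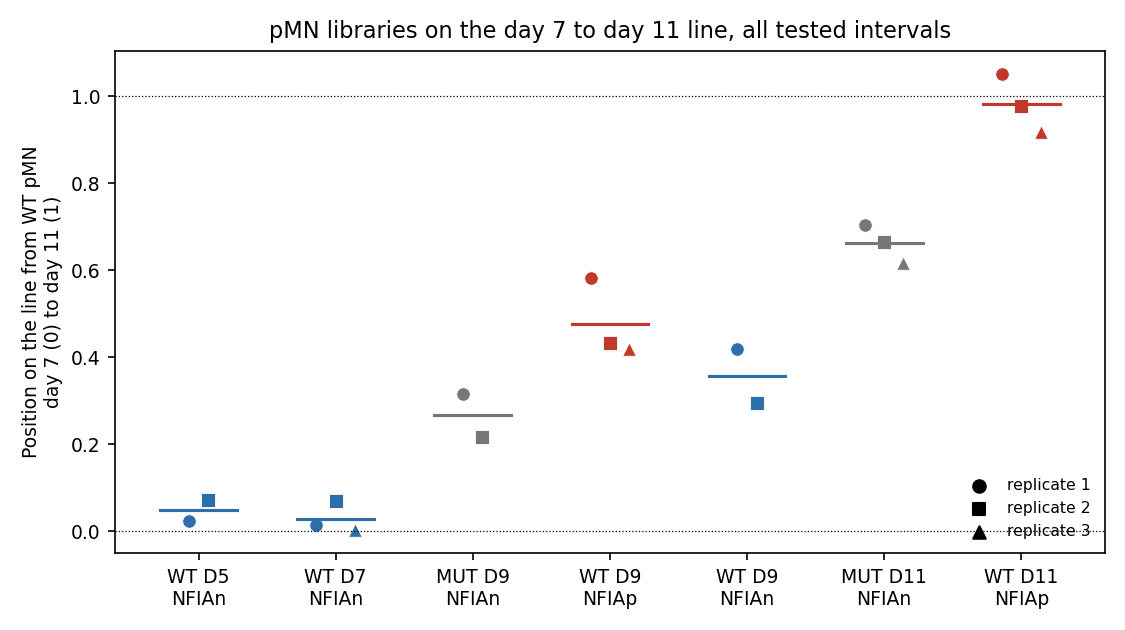
Position of pMN libraries on the line from WT day 7 (0) to WT day 11 (1) over all tested intervals, by group in order of day; points are libraries (shape gives the replicate), bars are group means, and MUT is grey. The WT day 9 NFIAp libraries lie at 0.418 to 0.581 and the NFIAn libraries at 0.295 and 0.418.

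The 2 fractions were not equally far along for every class. Over the intervals that rose in WT and were lower in MUT, the NFIAp libraries lay at 0.438, 0.274 and 0.262 of the way and the NFIAn libraries at 0.215 and 0.137, with no overlap. Over those that rose in both genotypes the positions were 0.632, 0.458 and 0.419 in NFIAp and 0.400 and 0.251 in NFIAn, again without overlap. Over the intervals that fell in WT the fractions overlapped, at 0.678, 0.555 and 0.553 in NFIAp and 0.609 and 0.459 in NFIAn. Intervals that fell in WT and were higher in MUT lay at 0.510, 0.376 and 0.387 in NFIAp and 0.438 and 0.309 in NFIAn, also overlapping.

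Distances between libraries gave the size of the whole difference. The root mean square difference of log2(value + 5) was 0.420 to 0.623 between an NFIAp and an NFIAn library, against 0.390 to 0.486 within NFIAp and 0.476 within NFIAn. With the pooled replicate variance taken out, the NFIAp and NFIAn means were 0.191 apart, whereas WT D11 pMN NFIAp and WT D9 pMN NFIAp were 0.819 apart. NFIAp was 0.391 and NFIAn 0.307 from MUT D9 pMN. Over the 155734 intervals, the difference between fractions correlated with the WT change from day 7 to 11 with r = 0.50, and with the MUT change with r = 0.47. The difference of NFIAp replicate 1 from replicates 2 and 3 correlated with the WT change just as much (r = 0.53), and that of NFIAn replicate 1 from replicate 2 with r = 0.37. Intervals share each library's depth and are not independent replicates, so these are descriptions.

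Set against the same sort in day 9 WT p2, where 3 NFIAp and 3 NFIAn libraries exist, the pMN fractions were closer together: p2 NFIAp and NFIAn were 0.360 apart on the scale on which the pMN fractions were 0.191 apart. The p2 NFIAp replicate 2, which lies near pMN on the population line, enters that value, and its part in it was not tested. Of the 19 intervals, 6 were also among the 1792 higher in NFIAp in p2 (1.15%), and 17 of 19 p2 differences were above 0. The median p2 difference was 0.02 over all tested intervals. It was 0.27 over the intervals that rose in WT pMN from day 7 to 11, which hold 16 of the 19. Without the 3 libraries that went against their labels, 5676 intervals (3.64%) were higher in NFIAp in p2, and 151 (61.9%) of the 244 called in pMN by that fit were among them. In Interval_89354, p2 NFIAp averaged 43.4 ± 45.8 normalised reads and p2 NFIAn 7.74 ± 3.96 (SD, n = 3 each). In Interval_40485, p2 NFIAp averaged 25.6 ± 11.2 and p2 NFIAn 25.3 ± 4.27 (SD, n = 3 each), means that nearly coincide.

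The difference between pMN and p2 was tested as an interaction in limma. The NFIAp minus NFIAn difference of pMN lay above that of p2 at 2333 intervals (1.5%) and below it at 98 (0.0629%), at an adjusted p under 0.05 and at least 1 on the log2 scale. These are signed differences, and at most of the intervals p2 moved further than pMN. Of the 2333, 2330 had a p2 difference below 0, 2184 had a p2 difference further from 0 than the pMN one, 1725 were called lower in p2 NFIAp, and 5 were called in pMN. Their median difference was 0.29 in pMN and -1.22 in p2. The counts above and below were 256 and 23 without pMN NFIAn replicate 1, and 1226 and 39 without pMN NFIAp replicate 3. Among the 19, the pMN difference lay above that of p2 at 5: Interval_40485 by 1.72 (limma adjusted p = 0.00910), Interval_67576 by 1.66 (0.0210), Interval_56544 by 1.48 (0.0286), Interval_103505 by 1.28 (0.0277) and Interval_152953 by 1.32 (0.0442). Without the 3 libraries that went against their labels, the counts were 2085 (1.34%) and 440 (0.283%). In that fit the difference in Interval_40485 still passed the test at 1.57 (limma adjusted p = 0.0259), those in the other 4 did not (adjusted p = 0.0869 to 0.165), and that in Interval_6199 passed at 1.60 (limma adjusted p = 0.0258).

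The called intervals were scattered singly in the table's numbering. Of the 76 intervals numbered within 2 of a called one, 13 were higher (17.1%) and 1 lower at an unadjusted limma p under 0.05, where 6.67% of all tested were higher, and their median difference was 0.24. In 312 blocks of 500 consecutive numbers, the median difference ran from -0.16 to 0.14, and no library's block level lay further than 0.17 from the mean of the fractions. Since the table gives no positions, whether consecutive numbers are neighbours on a chromosome could not be read from it.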

How the data were processed

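The authors deposited 1 table of signal values, read counts per interval divided by a size factor for each library; the build was mm10 per the submitters' processing notes, and aligner, peak caller and counter are not stated in the material used. Every library's values came in whole-number multiples of a single step, which gives back whole reads, within 0.01, for 100% of values. In 2 columns, WT D9 pMN NFIAn replicate 2 and MUT D11 p2 replicate 1, the step lies too near 1 to tell scaled from unscaled values by this test, and they were used the same way. Samples were grouped by their titles. Python 3.11.15 and R 4.3.3 were used. The limma 3.58.1 fit took log2(value + 5) for all intervals, as 26 group means over 71 libraries with a variance trend and 45 residual degrees of freedom. Intervals reaching 10 in at least 2 libraries were tested (155734 of 155738), with Benjamini-Hochberg adjustment, and called at adjusted p under 0.05 and an absolute difference of at least 1. Reads recovered from the steps were tested with edgeR 4.0.16 as an alternative.

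Interval classes were called in a separate fit of the 66 libraries other than the 5, by the same rule. The class that rose in both genotypes leaves out intervals lower in MUT than in WT on day 11. The class that fell in both leaves out those higher in MUT on day 11. Strong constant intervals are those with group means within 0.5 (log2) over the other groups and a mean in the top 10%. Each library was projected on a line between 2 group means, leaving it out of the mean it belongs to. Named intervals are all called ones; for a direction with fewer than 5 calls, the 5 with the smallest p among non-overlapping intervals at or above the median level that differ by at least 1; the leading interval of each class; and up to 2 numbers on each side of a call. The libraries, classes and rules were chosen with earlier results of these data known. The fit was tested on simulated data. Gene names, motifs and sequences were not analysed here, since the table numbers its intervals only. Of groups with 2 to 3 libraries, outliers within a group were not tested.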

Additional observations from a re-analysis of the deposited data

Results flagged for a closer look

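The difference between NFIAp and NFIAn differed between pMN and p2 on day 9, by the limma interaction test, at 2333 intervals where the signed pMN difference lay above that of p2 and 98 where it lay below. At 2184 of the 2333 the p2 difference was the one further from 0, and 5 of the 2333 were called in pMN. Without WT D9 p2 NFIAp replicate 2, which lies near pMN on the population line, the counts were 1996 and 429, and without all 3 libraries that go against their labels they were 2085 and 440. Called intervals with such a difference were Interval_40485 (1.72, pMN minus p2, log2), Interval_56544 (1.48), Interval_67576 (1.66), Interval_152953 (1.32) and Interval_103505 (1.28). Without those 3 libraries they were 1.57, 1.00, 1.27, 1.26 and 0.98.

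Among the leading intervals of the classes, Interval_145039, which leads those lower in NFIAp in p2, differed by 2.48, with 58.2, 48.6 and 74.4 normalised reads in pMN NFIAp and 32.8 and 60.8 in pMN NFIAn. Its p2 means were 74.3 normalised reads in NFIAp and 333 in NFIAn. Interval_51980, which leads the intervals highest in p2 on day 11, differed by 2.23, with 27.1, 25.4 and 40.8 normalised reads in pMN NFIAp and 21.2 and 26.9 in pMN NFIAn. The p2 libraries that chose Interval_145039 also enter this test, so its difference is a description.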

How the results depend on the processing

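No called difference changed sign under the alternatives. The fractions do not overlap in any of the 19, so leaving out a library or changing the value added could not reverse the sign. Of 287 class medians recomputed, 20 had the opposite sign, in 6 of 16 classes, most often those lower in p2 NFIAp (7 of 18) and highest in pMN on day 7 (6 of 18). The count of intervals called higher, 19, was 10 with 1 added before the logarithm, 86 with 20 added, 8 with a minimum mean of 30, 31 with library quality weights and 0 in a fit of the 5 libraries alone; leaving out each of the 5 gave 0 to 134 higher and 0 to 7 lower, and with no minimum change 1 was lower. Replicate numbers pair the fractions for 2 numbers only, and their deviations correlated at 0.37 and 0.07. The labels name no shared batch, and the main fit did not take the numbers as pairs. On the day 7 to day 11 line, replicates 1 and 2 lay at 0.316 and 0.218 in MUT D9 pMN. They lay at 0.703 and 0.665 in MUT D11 pMN, and at 1.05 and 0.978 in WT D11 pMN. Replicate 1 was further along than replicate 2 in each, as in both WT D9 pMN fractions. The order was the opposite in WT D5 pMN (0.0241 and 0.0714), WT D7 pMN (0.0141 and 0.0702) and MUT D7 pMN (-0.0176 and 0.00691). In MUT D5 pMN they lay at 0.0268 and 0.0178. With a replicate block across all libraries 283 were higher and 5 lower, and with one within WT D9 pMN 246 and 5. Leaving out WT D9 p2 NFIAp replicate 2 gave 230 and 6, and all 3 libraries in doubt 244 and 7. The pMN differences above those of p2, 2333, numbered 256 to 3084 with each of the 5 left out and 1333 with the block within WT D9 pMN. Those below, 98, numbered 23 to 104 with each left out, 28 with 20 added, 58 with a minimum mean of 30, 185 after quantile normalization, 172 and 59 with the blocks, 429 without that p2 library and 440 without the 3.

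Among class medians, those of intervals rising and falling from day 5 to 7 became 0.038 and -0.047 after quantile normalization, that of p0-p1 -0.019, and that of strong constant intervals -0.0100, or -0.054 with equal totals. Adding 20 gave 0.27 for intervals higher in p2 NFIAp. With a class threshold of 2, medians were -0.26 (fell in WT, higher in MUT), 0.39 (rose in MUT alone), -0.35 (p2 on day 11, 1 interval) and 1.58 (higher in p2 NFIAp, 5 intervals). Leaving out each library gave 0.020 to 0.13 and -0.00078 to 0.065 for rising and falling from day 5 to 7, -0.035 to 0.14 for p2 and 0.012 to 0.085 for p0-p1 on day 11, and -0.25 to 0.24 for pMN on day 7. The cause of these changes was not tested. Most simulated 2-fold changes were not called. The minimum difference of 1 takes part in this, since a 2-fold change is under 1 on the log2(value + 5) scale.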
